A study of Mus musculus with 10 samples.

Results

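The genes described here encode the machinery of oxidative phosphorylation in mouse acute lymphoblastic leukaemia recovered from transplanted mice. They were chosen by symbol, as all genes whose single platform symbol begins with Nduf, Uqcr, Cox4, Cox5, Cox6, Cox7, Cox8 or Atp5, together with the Sdha to Sdhd genes, Cyc1 and Cycs. The rule found 92 of the 18193 genes measured. There were 34 complex I subunits, 8 complex I assembly factors whose symbols begin with Ndufaf, 4 complex II subunits, 9 complex III subunits with cytochrome c itself (Cycs), 19 complex IV genes and 17 complex V genes. Ndufa4 and its paralogue Ndufa4l2 were counted with complex IV, to which the NDUFA4 protein belongs despite its name.

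RNA of the sorted leukaemia of 10 animals was hybridised, 1 Affymetrix array per animal. Every recipient was, by the labels, a C57BL/6 mouse prepared with total body irradiation and 5-fluorouracil. In the syngeneic group (5 animals) the donor marrow and spleen cells were C57BL/6, and in the allogeneic group (5 animals) they were C3.SW. The leukaemia, named NSTY ALL in the labels and of C57BL/6 background, was given mixed with the donor cells in both groups. It carried the human p210 bcr/abl fusion and a deletion of the Ink4a/Arf locus in both groups. It was sorted and passed on at intervals of 2 to 3 weeks through 3 serial transplants, and the last cells were sorted from marrow on green fluorescent protein. Whether the animals of a group shared an earlier recipient, and whether the leukaemia is 1 clone, the labels do not say, so the p-values measure only the spread between these animals. The labelled cell type was checked against 10 measured markers of B-lymphoid progenitors. Of these, 9 were above background on all 10 arrays and Pax5 on 6 of 10, and the list's summed linear level ran from 61217 to 63415 in syngeneic and from 63003 to 64931 in allogeneic animals.

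Oxidative phosphorylation takes place in the inner mitochondrial membrane. Complex I accepts electrons from NADH and complex II from succinate, complex III passes them from ubiquinol to cytochrome c, and complex IV hands them to oxygen. Complexes I, III and IV pump protons as they do so, and complex V, the ATP synthase, lets the protons back and makes ATP. Most subunits are encoded in the nucleus and a few core subunits of complexes I, III, IV and V in mitochondrial DNA. Among the transcription factors known to act on many of the nuclear genes are NRF-1, the ETS factor GABP and YY1.

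The promoters of the genes were searched for short letter patterns, since a shared promoter pattern is a feature that the selection by symbol did not use. RefSeq windows from 250 bases before to 50 bases after the start (GRCm38.p6) were matched by symbol for 75 of the 92 genes. The NRF-1 pattern GCATGCGC, on either strand (its other strand reads GCGCATGC), was present for 12 of the 75 genes (16%), for 4.68% of the 14452 measured genes with a window and for 3.05% of all 27025 genes with a window. The ETS pattern CCGGAAG was present for 19 of 75 genes (25.3%) against 15.0% of measured genes and 9.93% of all. The YY1 pattern AAGATGGCG was present for 7 of 75 (9.33%) against 2.53% and 1.64%. The TATA box letters TATAAA were present for 8 of 75 (10.7%) against 11.5% and 15.7%. None of these patterns contains another, and a match is a description of letters, not a binding site. Shown here, for complex I, its assembly factors, complex II, complex III with cytochrome c, complex IV and complex V in turn, is the gene with an NRF-1 match wholly upstream of the start and the smallest p-value in its group. Each is 100 bases of GRCm38.p6 from RefSeq, 5′ to 3′ on the gene's strand, with the match in capitals. In Ndufaf4 and Cox6a1 the capitals are 2 overlapping matches, 1 on each strand.
Ndufa6 (chr15:82354321-82354420, minus strand): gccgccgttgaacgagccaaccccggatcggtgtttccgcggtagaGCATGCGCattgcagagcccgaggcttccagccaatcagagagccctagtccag
Ndufaf4 (chr4:24897924-24898023, plus strand): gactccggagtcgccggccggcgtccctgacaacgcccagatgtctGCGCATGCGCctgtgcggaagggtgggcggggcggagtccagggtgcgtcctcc
Sdhb (chr4:140961171-140961270, plus strand): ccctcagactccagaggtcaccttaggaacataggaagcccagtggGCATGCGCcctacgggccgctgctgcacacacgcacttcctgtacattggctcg
Cycs (chr6:50566576-50566675, minus strand): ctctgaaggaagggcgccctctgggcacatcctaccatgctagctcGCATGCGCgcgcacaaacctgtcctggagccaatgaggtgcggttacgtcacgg
Cox6a1 (chr5:115349067-115349166, minus strand): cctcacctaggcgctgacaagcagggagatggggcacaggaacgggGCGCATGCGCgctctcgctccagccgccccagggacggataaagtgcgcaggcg
Atp5l (chr9:44920893-44920992, minus strand): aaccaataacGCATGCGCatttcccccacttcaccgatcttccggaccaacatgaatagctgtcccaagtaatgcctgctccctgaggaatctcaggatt
The 12 genes with the NRF-1 pattern had a median difference of 0.14 between allogeneic and syngeneic leukaemia on the log2 scale, and the other genes with a window a median of 0.10. With and without the pattern the medians were 0.089 and 0.11 for ETS, 0.13 and 0.11 for YY1, and 0.11 and 0.11 for TATA.

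No gene of the 92 passed the test between allogeneic and syngeneic leukaemia. By limma over all 18193 genes at a Benjamini-Hochberg adjusted p under 0.05, 0 of 92 were called, and 0.583% of all genes were (0.506% higher and 0.077% lower in allogeneic leukaemia). At an unadjusted p under 0.05, 12 of the 92 (13.0%) had higher and 0 had lower values in allogeneic leukaemia, against 9.47% and 7.40% of all genes. Among the 1325 genes with a mean level of 12 or more, a range that holds 62 of the 92, these shares were 3.32% and 7.77%. The smallest adjusted p was 0.129, for Ndufa7. Most differences nevertheless had the same sign. The allogeneic mean was higher for 78 of the 92 genes (84.8%), against 51.2% of all genes and 43.1% of those 1325 genes. The median difference was 0.11 over the 92 genes, 0.01 over all genes and -0.02 over those 1325.

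These shares depended on the scaling of the arrays. On log2 values without quantile normalization 69.6% of the 92 genes were positive, with a median of 0.06, beside 25.9% and a median of -0.08 for the genes of level 12 or more. With each array only centred on its median, 57.6% were positive, with a median of 0.03, beside 18.8% and -0.12. Levels are on the log2 scale throughout and differences are allogeneic minus syngeneic. A background limit was set on each array at the 95th percentile of its 27 bacterial control probe sets, and 85 of the 92 genes were above it on all 10 arrays. Of 52 genes with several probe sets, 14 had at least 1 whose sign was opposite to that of the probe set used. In Ndufb9, Cycs, Cox5b, Cox6a2 and Atp5g1 the opposite probe set was above the limit on 5 or fewer arrays.

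**Figure D1:**
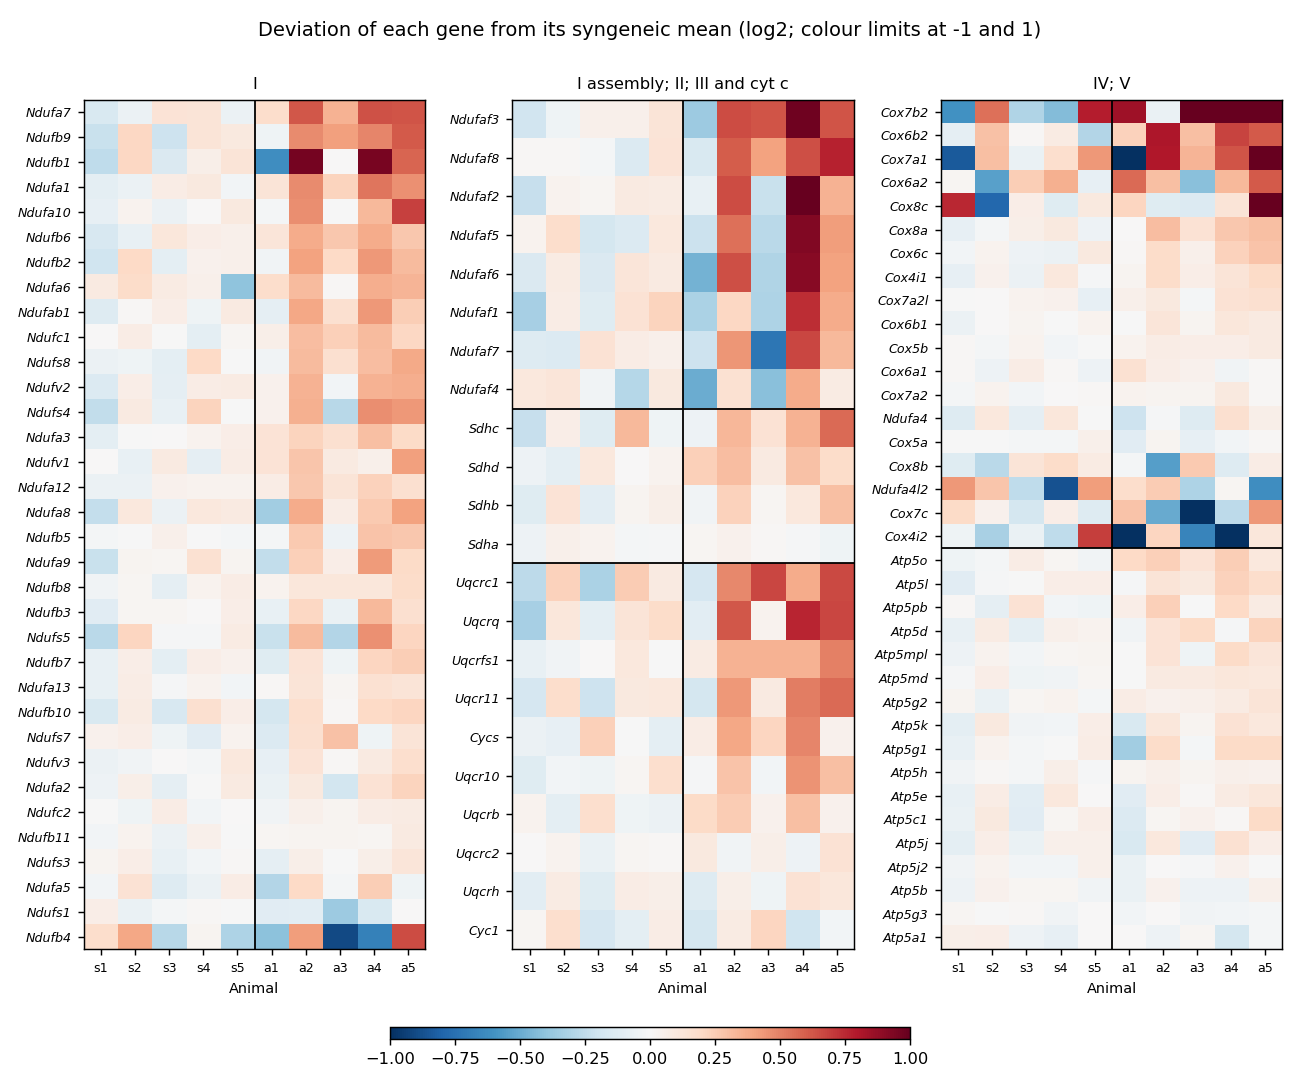
Deviation of each of the 92 genes from its own syngeneic mean (log2, colour) in each of the 10 animals (s, syngeneic; a, allogeneic), by complex and ordered by difference. Columns a2, a4 and a5 are mostly red for complexes I to III, and a1 and a3 less so. Complex V is mostly pale, and the differences between its group means run from -0.05 to 0.19, though single animals deviate further.

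The shift was unequal between the allogeneic animals. Over the 92 genes the median deviation from the syngeneic mean was -0.03, 0.20, 0.02, 0.22 and 0.19 in allogeneic animals 1 to 5, and it lay between -0.06 and 0.04 in the syngeneic animals. Animals 2, 4 and 5 thus lay above every syngeneic animal, and animals 1 and 3 lay among them. In allogeneic animals 1 to 5, 37, 84, 57, 77 and 85 of the 92 genes exceeded their syngeneic mean. Of all 18193 genes 8103, 10435, 9343, 9150 and 10421 did so, with median deviations of -0.06, 0.09, 0.02, 0.004 and 0.11. All genes together were thus also highest in animals 2 and 5 and lowest in animal 1. Over the 1325 genes of level 12 or more the medians were -0.02, -0.01, -0.001, -0.04 and -0.02. The spread was larger in the allogeneic group for 79 of 92 genes, with a median SD of 0.16 against 0.09, as it was for 14081 of 18193 genes, whose medians were 0.43 and 0.26. Without allogeneic animal 1, 3 of the 92 genes were called (Ndufa7, Ndufaf3 and Ndufaf8, all higher), a share near the 3.50% of all genes called in that fit, where the whole count was 636 in place of 106. Without allogeneic animals 1, 3 and 4 the same 3 genes were called, beside 3.62% of all genes.

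Other measures also differed between the allogeneic animals, though not all in the same ones. The lower quartile of the deposited intensities stood at 19.5, 19.0 and 18.7 in allogeneic animals 1, 3 and 4 and between 13.8 and 14.4 in the other 7 animals. The 9 measured macrophage and monocyte markers had median deviations of -0.33, 0.54, 0.02, 0.48 and 0.59 in allogeneic animals 1 to 5, highest in animals 2, 4 and 5, and between -0.07 and 0.15 in the syngeneic animals. The differences of 4 of the 9 were positive, and Cd14 was not well above background on any array. The summed linear level of the 9 ran from 8852 to 11206 in syngeneic and from 12300.1 to 14098 in allogeneic animals. Most of that sum came from Mpeg1 (syngeneic and allogeneic means of 11.95 and 12.63) and Fcgr3 (12.25 and 12.46). Allogeneic animal 1 had the highest sum although its median deviation was the lowest. The 6 granulocyte markers had median deviations of -0.54, 0.61, -0.08, 0.67 and -0.05 in the allogeneic animals, high in animals 2 and 4 but not in 5, and between -0.30 and 0.51 in the syngeneic animals, with 5 of 6 differences positive. Their summed level ran from 1801 to 4452 in syngeneic and from 1201 to 7272 in allogeneic animals. The summed levels ran from 172 to 221 in syngeneic and 173 to 249 in allogeneic animals for T cell markers, from 977 to 1466 and 1198 to 1988 for NK cell markers, and from 101 to 122 and 112 to 168 for erythroid markers. For stroma and endothelium they ran from 496 to 678 and from 665 to 919, with 7 of 7 differences positive. Of these 7 genes only Pecam1, which made up most of the sum, was above the limit on all 10 arrays. Cxcl12 was not well above background on any array, and Kdr and Cdh5 were above the limit on 1 array each. The part of any of these cells in the result was not tested, and in sorted bulk cells fewer cells of a type cannot be told apart from less RNA per cell.

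**Figure D2:**
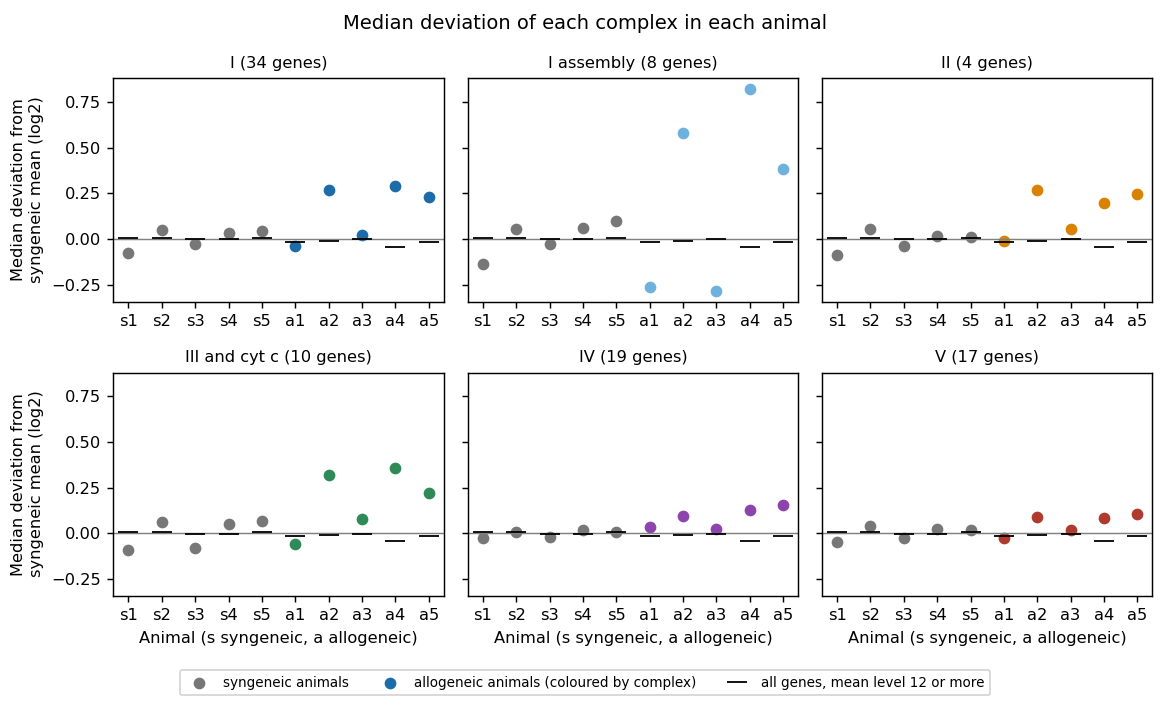
Median deviation from the syngeneic mean (log2) of the genes of each complex in each animal (s1 to s5 syngeneic, a1 to a5 allogeneic); dashes give the median of all 1325 genes with a mean level of 12 or more. In allogeneic animals 2, 4 and 5 the medians of complexes I, II and III lie between 0.20 and 0.36, while those of complex V reach at most 0.10.

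Complex I, the largest of the complexes, had higher allogeneic means for 32 of its 34 measured subunits, with a median difference of 0.15. Its median deviation was -0.04, 0.27, 0.02, 0.29 and 0.23 in allogeneic animals 1 to 5. The median stayed positive but fell to 0.09 without quantile normalization and to 0.05 with median centring only. The 28 accessory subunits, which surround the catalytic core, and the 6 core subunits had medians of 0.15 and 0.14. For 5 accessory genes (Ndufa1, Ndufa3, Ndufa7, Ndufa12 and Ndufb6) all allogeneic values lay above all syngeneic ones. Over the 92 genes this held for 8 (8.70%), and for 2.94% of all genes. All allogeneic values lay below all syngeneic ones for 0 of the 92 and for 1.90% of all genes.

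Ndufa7, an accessory subunit, read 11.17, 11.26, 11.45, 11.45 and 11.26 in syngeneic animals 1 to 5 and 11.49, 11.94, 11.67, 11.95 and 11.95 in allogeneic animals 1 to 5. The groups did not overlap, although allogeneic animal 1 came close to the highest syngeneic values. The difference was 0.48 (SE 0.13, adjusted p = 0.129), and all 5 probe sets of Ndufa7 had the same sign. Ndufa1, an X-linked accessory subunit, read 12.18, 12.21, 12.35, 12.37 and 12.24 in syngeneic and 12.40, 12.74, 12.49, 12.81 and 12.73 in allogeneic animals. Again animals 1 and 3 were the lowest of the allogeneic group, and the difference was 0.36 (SE 0.11, adjusted p = 0.169). Both genes passed in 2 of the other fits, with adjusted p-values of 0.0493 for Ndufa1 and 0.0451 for Ndufa7 with an intensity trend and robust moderation, where 1.69% of all genes were called. With array weights, where 3.96% were called, they were 0.0419 and 0.0290.

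The 2 complex I subunits with lower allogeneic means were Ndufs1 and Ndufb4. Ndufs1, the large iron-sulphur subunit of the core, read 11.51, 11.38, 11.43, 11.46 and 11.44 in syngeneic and 11.33, 11.33, 11.08, 11.29 and 11.45 in allogeneic animals. The groups overlapped through allogeneic animal 5, and the difference was -0.15 (SE 0.10, adjusted p = 0.489). The other 5 core subunits (Ndufs3, Ndufs7, Ndufs8, Ndufv1 and Ndufv2) had differences of 0.03 to 0.23. Ndufb4 had a difference of -0.18 (SE 0.31), but its probe set was above the limit on only 2 syngeneic and 3 allogeneic arrays. It read 5.09, 5.31, 4.64, 4.95 and 4.62 in syngeneic and 4.51, 5.34, 4.02, 4.24 and 5.57 in allogeneic animals. That probe set therefore carried little information on Ndufb4, whose brighter probe sets are shared with related genes.

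The 8 complex I assembly factors, which help build the complex but are not part of it, spread further apart between animals than the subunits. Their median deviation was -0.26, 0.58, -0.29, 0.82 and 0.39 in allogeneic animals 1 to 5, so animals 1 and 3 lay below the syngeneic range of -0.14 to 0.10 and the other 3 above it. Allogeneic animal 1 exceeded the syngeneic mean for 0 of 8 genes and allogeneic animal 3 for 2 of 8, against 8 of 8 in animals 2, 4 and 5. The median SD was 0.13 among syngeneic and 0.51 among allogeneic animals, against 0.08 and 0.17 for the subunits. The factors had mean levels of 8.77 to 11.31, lower than most subunits. Over all genes above the limit on all 10 arrays the median SDs were 0.17 and 0.31. At levels of 12 or more they were 0.08 and 0.14, so the contrast with the subunits is partly one of level. The median difference of the factors was 0.26. This median rested on single animals, at 0.095 with 62.5% of the genes positive without allogeneic animal 4, 0.41 without animal 1 and 0.40 without animal 3.

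Ndufaf3, an assembly factor of the early steps, read 10.02, 10.17, 10.26, 10.26 and 10.35 in syngeneic and 9.85, 10.86, 10.84, 11.19 and 10.84 in allogeneic animals. Allogeneic animal 1 was below every syngeneic animal and the other 4 were above, and the difference was 0.50 (SE 0.23, adjusted p = 0.294). Without allogeneic animal 1 it was 0.72 (adjusted p = 0.0214). Ndufaf8 read 11.09, 11.09, 11.06, 10.94 and 11.22 in syngeneic and 10.93, 11.69, 11.49, 11.73 and 11.85 in allogeneic animals, with a difference of 0.46 (SE 0.17, adjusted p = 0.226). It too separated the groups except for allogeneic animal 1, without which the difference was 0.61 (adjusted p = 0.0265). Ndufaf4 read 11.36, 11.37, 11.21, 10.96 and 11.35 in syngeneic and 10.75, 11.40, 10.83, 11.62 and 11.33 in allogeneic animals. Its groups overlapped widely, with a difference of -0.06 (SE 0.19, adjusted p = 0.900) that was positive at 0.05 without allogeneic animal 1 and at 0.03 without animal 3. The other Ndufaf4 probe set, at a mean level of 10.62 and above the limit on all 10 arrays, differed by -0.53. It did not pass limma's test over all probe sets (adjusted p = 0.253).

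**Figure D3:**
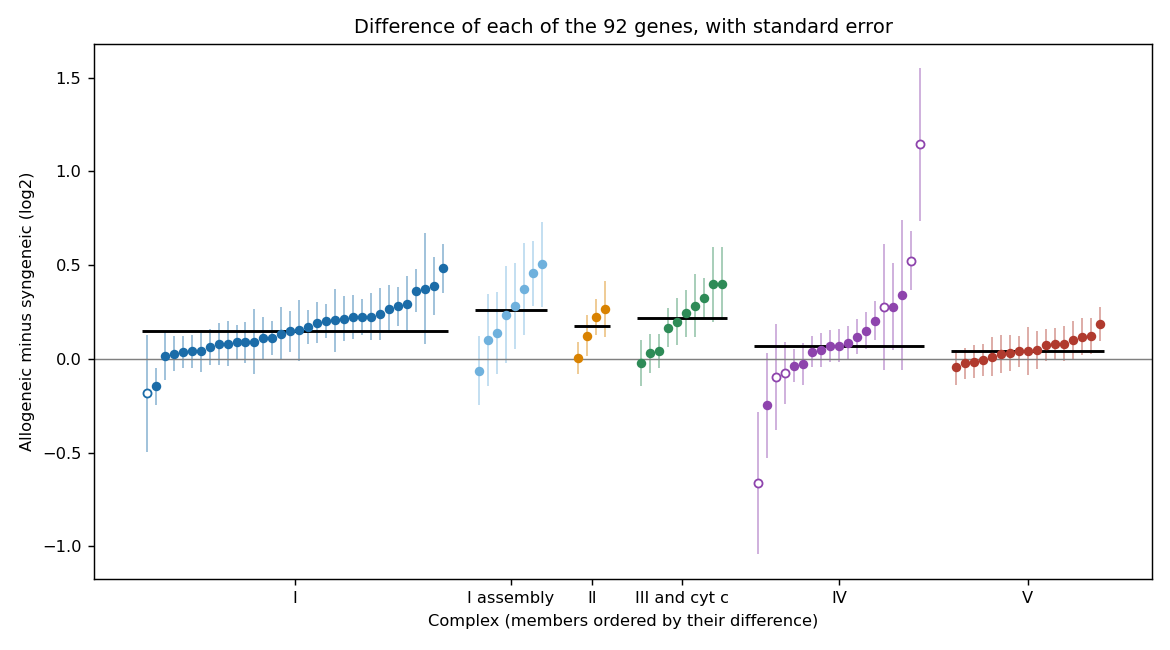
Allogeneic minus syngeneic difference (log2) of each of the 92 genes with its standard error, by complex; black bars are the medians of 0.15, 0.26, 0.18, 0.22, 0.07 and 0.04 from left to right. Open points are the 7 genes not above the background limit on every array, and the widest errors are those of Cox7b2 (0.41), Cox7a1 (0.40) and Cox4i2 (0.38) in complex IV.

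Complex II, succinate dehydrogenase, links the tricarboxylic acid cycle to the respiratory chain and has no subunit encoded in mitochondrial DNA. Its 4 genes had a median difference of 0.18, and the median deviation in allogeneic animals 1 to 5 was -0.01, 0.27, 0.06, 0.20 and 0.25. Sdhd, a membrane anchor, read 12.38, 12.33, 12.54, 12.43 and 12.46 in syngeneic and 12.66, 12.74, 12.52, 12.72 and 12.61 in allogeneic animals. Only allogeneic animal 3 fell within the syngeneic range, and the difference was 0.23 (SE 0.10, adjusted p = 0.275).

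Sdhc, the other membrane anchor, read 10.41, 10.71, 10.52, 10.97 and 10.60 in syngeneic and 10.59, 10.98, 10.79, 10.99 and 11.21 in allogeneic animals (0.27, SE 0.15, adjusted p = 0.404). Sdhb, the iron-sulphur subunit, read 12.28, 12.54, 12.30, 12.43 and 12.46 in syngeneic and 12.36, 12.63, 12.42, 12.51 and 12.71 in allogeneic animals (0.12, SE 0.11, adjusted p = 0.600). Both genes overlapped between groups. Sdha, the flavoprotein that oxidises succinate, read 12.37, 12.47, 12.46, 12.40 and 12.41 in syngeneic and 12.44, 12.47, 12.44, 12.41 and 12.38 in allogeneic animals. The allogeneic values of Sdha all lay inside the syngeneic range, and its difference was below 0.01 (0.0034, SE 0.09, adjusted p = 0.989) with a sign that turned under both other scalings. Of its 4 probe sets, 3 had a negative difference.

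Complex III and cytochrome c had a median difference of 0.22 (0.16 without quantile normalization and 0.12 with median centring only), with 9 of 10 genes positive. It was the largest of the 5 complexes in the reported fit, but complex II was larger without allogeneic animal 4 (0.17 against 0.16) and over the mean of all probe sets (0.22 against 0.15), and complexes I and II were both at 0.26 against 0.25 without allogeneic animals 1, 3 and 4. The median deviation in allogeneic animals 1 to 5 was -0.06, 0.32, 0.08, 0.36 and 0.22. Uqcrfs1, the Rieske iron-sulphur protein, read 11.68, 11.71, 11.76, 11.86 and 11.75 in syngeneic and 11.84, 12.10, 12.10, 12.10 and 12.26 in allogeneic animals. Allogeneic animal 1 alone lay inside the syngeneic range, and the difference was 0.33 (SE 0.11, adjusted p = 0.181). Uqcrc1, a core protein of the complex, read 10.10, 10.59, 10.05, 10.62 and 10.45 in syngeneic and 10.20, 10.84, 11.03, 10.73 and 11.02 in allogeneic animals. In this gene too allogeneic animal 1 alone lay inside the syngeneic range, and the others above it, with a difference of 0.40 (SE 0.19, adjusted p = 0.328).

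Cyc1, the haem-bearing cytochrome c1 subunit, was the gene of complex III with a negative difference. It read 12.37, 12.52, 12.18, 12.25 and 12.43 in syngeneic and 12.17, 12.43, 12.56, 12.15 and 12.32 in allogeneic animals, with groups that overlapped throughout (-0.02, SE 0.12, adjusted p = 0.953). Cycs, the mobile carrier between complexes III and IV, read 12.57, 12.55, 12.87, 12.62 and 12.53 in syngeneic and 12.71, 13.02, 12.85, 13.11 and 12.67 in allogeneic animals. Syngeneic animal 3 stood above the rest of its group and allogeneic animals 2 and 4 above all others, and the difference was 0.24 (SE 0.13, adjusted p = 0.365).

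Complex IV, cytochrome c oxidase, showed small differences in its generally expressed subunits. Of these 11 genes 8 were positive, with a median of 0.07 and a range of -0.25 to 0.20. Cox8a read 12.22, 12.28, 12.35, 12.39 and 12.24 in syngeneic and 12.30, 12.60, 12.44, 12.57 and 12.59 in allogeneic animals, and its difference was 0.20 (SE 0.10, adjusted p = 0.348). Cox4i1, which takes part in the regulation of the enzyme by ATP, read 12.96, 13.08, 12.98, 13.15 and 13.03 in syngeneic and 13.07, 13.22, 13.11, 13.17 and 13.23 in allogeneic animals (0.12, SE 0.09, adjusted p = 0.551). Both genes overlapped between groups.

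Several complex IV genes differed little between animals. Cox7a2 read 13.73, 13.79, 13.73, 13.75 and 13.76 in syngeneic and 13.79, 13.78, 13.78, 13.85 and 13.77 in allogeneic animals (0.04, SE 0.08, adjusted p = 0.854). Cox6a1 read 13.71, 13.64, 13.77, 13.71 and 13.64 in syngeneic and 13.85, 13.76, 13.74, 13.66 and 13.71 in allogeneic animals (0.05, SE 0.09, adjusted p = 0.823). Cox6b1 read 13.52, 13.58, 13.60, 13.57 and 13.61 in syngeneic and 13.58, 13.70, 13.60, 13.69 and 13.66 in allogeneic animals (0.07, SE 0.09, adjusted p = 0.725). The groups of all 3 genes overlapped, and with median centring only all 3 differences were negative, while without quantile normalization those of Cox7a2 and Cox6a1 were.

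Ndufa4 read 12.81, 13.05, 12.86, 13.06 and 12.94 in syngeneic and 12.73, 12.94, 12.82, 13.10 and 13.00 in allogeneic animals (-0.03, SE 0.11, adjusted p = 0.933). Cox7c, a small membrane subunit, read 9.60, 9.45, 9.23, 9.47 and 9.28 in syngeneic and 9.69, 8.90, 8.21, 9.15 and 9.84 in allogeneic animals (-0.25, SE 0.28, adjusted p = 0.695). For both genes the allogeneic values reached above and below the syngeneic ones. These 2 genes and Cox5a were the 3 general complex IV genes with negative differences. That of Cox5a was -0.04 (SE 0.09, adjusted p = 0.868), and its 2 other probe sets, also bright, had positive differences (0.13 and 0.17). In Cox5b, which binds zinc, all allogeneic values lay above all syngeneic ones, but the difference was only 0.07 (SE 0.08, adjusted p = 0.726).

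The complex IV isoforms known from muscle, testis or low oxygen were mostly at background. Cox8c, a testis isoform, and Ndufa4l2, a hypoxia-inducible relative of Ndufa4, were not well above background on any array, and Cox4i2, the lung and hypoxia isoform of subunit 4, was above the limit on 1 syngeneic array and 0 allogeneic ones. Cox8b was above it on 1 syngeneic and 2 allogeneic arrays, Cox6b2 on 0 and 4, and Cox7b2 on 0 and 1. The fitted differences of these 6 genes lie between values near or below the limit, so they measure no fold. Cox6b2, the testis isoform of subunit 6b, read 4.28, 4.66, 4.39, 4.46 and 4.08 in syngeneic and 4.60, 5.18, 4.68, 5.05 and 4.98 in allogeneic animals, close to the limits of 4.50 to 5.32. Its difference of 0.52 (SE 0.16, adjusted p = 0.153) passed without quantile normalization (0.75, adjusted p = 0.0368, where 0.698% of all genes were called) and with array weights (0.68, adjusted p = 0.0450).

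Cox7b2 read 2.27, 3.43, 2.58, 2.44 and 3.66 in syngeneic and 3.73, 2.81, 4.63, 4.32 and 4.61 in allogeneic animals (1.14, SE 0.41, adjusted p = 0.207). Cox4i2 read 4.51, 4.22, 4.48, 4.30 and 5.24 in syngeneic and 3.22, 4.76, 3.89, 2.90 and 4.66 in allogeneic animals (-0.66, SE 0.38, adjusted p = 0.409). Values below the limit have no order. Cox8b read 4.57, 4.42, 4.82, 4.87 and 4.77 in syngeneic and 4.67, 4.14, 4.95, 4.56 and 4.77 in allogeneic animals, and Ndufa4l2 read 3.91, 3.76, 3.22, 2.61 and 3.89 in syngeneic and 3.65, 3.73, 3.16, 3.50 and 2.85 in allogeneic animals.

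The muscle isoforms Cox7a1 and Cox6a2 were above the limit on all 10 arrays. Cox7a1 read 7.09, 8.24, 7.87, 8.10 and 8.36 in syngeneic and 6.84, 8.73, 8.27, 8.56 and 8.96 in allogeneic animals. Animal 1 was the lowest of each group, and the difference was 0.34 (SE 0.40, adjusted p = 0.708). Cox6a2 read 6.02, 5.46, 6.25, 6.36 and 5.92 in syngeneic and 6.57, 6.31, 5.58, 6.33 and 6.62 in allogeneic animals (0.28, SE 0.23, adjusted p = 0.576). Of 6 cardiac and skeletal muscle markers, Myh6, Actc1, Ckm and Tnni3 were not well above background on any array. Myh7 was above the limit on all 10 arrays and differed by 0.55 (SE 0.26, adjusted p = 0.314). Mb was above it on 3 syngeneic and 5 allogeneic arrays and differed by 0.74 (SE 0.26, adjusted p = 0.209). Differences were positive for 4 of the 6 markers and negative for 2. The summed linear level of the 6 was 113 to 154 in syngeneic and 145 to 205 in allogeneic animals.

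**Figure D4:**
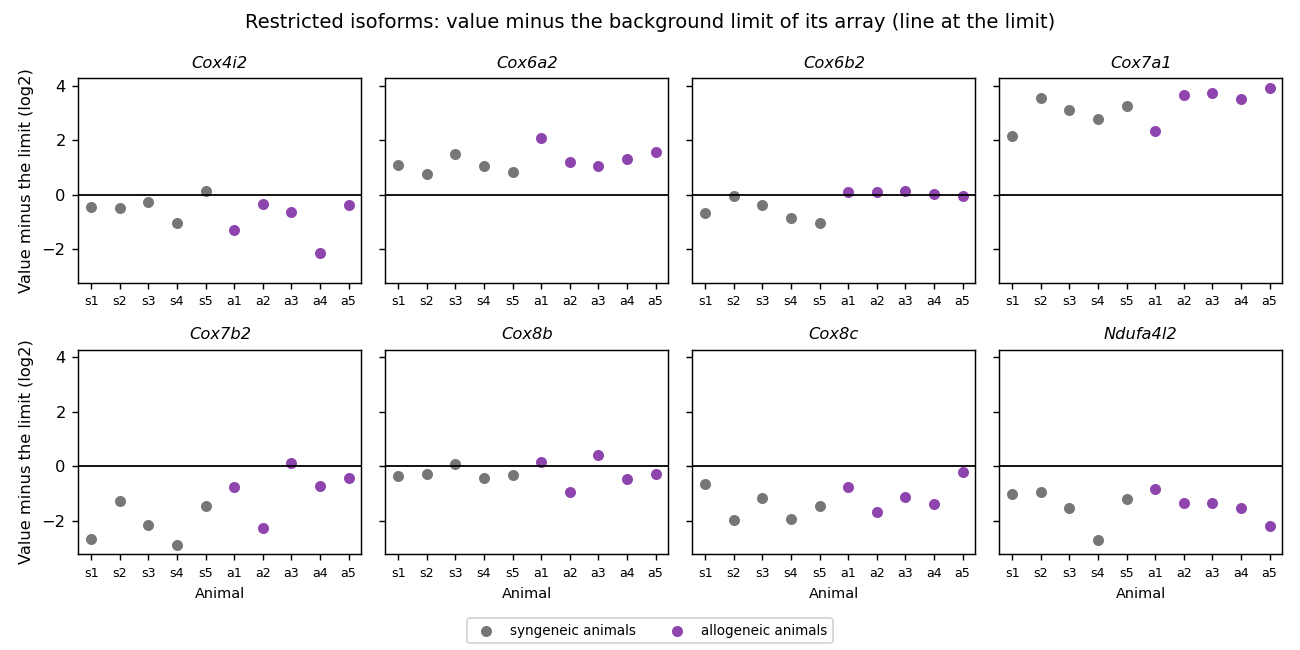
Value of each restricted complex IV isoform minus the background limit of its array (log2) in the 10 animals, with a line at the limit. Cox6a2 and Cox7a1 lie above the line in every animal, and Cox8c and Ndufa4l2 below it in every animal.

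Complex V, the ATP synthase, had the smallest median in the reported fit, and its sign depended on the scaling. Its 17 genes had a median difference of 0.04 that was -0.03 without quantile normalization and -0.06 with median centring only. Single differences, over the probe sets used, ran from -0.05 to 0.19. The median was 0.022 without syngeneic animal 1 and 0.076 without allogeneic animal 1. The median deviation was -0.03, 0.09, 0.02, 0.08 and 0.10 in allogeneic animals 1 to 5. All 17 had mean levels between 12.73 and 13.60, near the top of the scale, where the highest value on any array was 14.38. The median SD of these genes was 0.06 among syngeneic and 0.09 among allogeneic animals. Dimmer probe sets that were not used, above the limit on all 10 arrays, differed more in 2 genes. That of Atp5c1, at a mean level of 8.82, differed by -1.08, and that of Atp5j2, at 7.10, by 0.59. Neither passed limma's test over all probe sets (adjusted p = 0.129 and 0.125).

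The 5 measured subunits of the catalytic F1 head had a median of 0.03 and the 12 of the membrane part and stalk a median of 0.06. Atp5a1, the alpha subunit of the head, read 13.68, 13.69, 13.57, 13.54 and 13.63 in syngeneic and 13.63, 13.57, 13.64, 13.44 and 13.60 in allogeneic animals, with overlapping groups (-0.05, SE 0.09, adjusted p = 0.843). Atp5o, which joins the stalk to the head, read 12.98, 13.00, 13.09, 13.04 and 12.98 in syngeneic and 13.22, 13.25, 13.15, 13.26 and 13.12 in allogeneic animals. Its groups did not overlap, and the difference was 0.19 (SE 0.09, adjusted p = 0.322). Atp5l, subunit g of the membrane part, read 12.65, 12.76, 12.76, 12.83 and 12.84 in syngeneic and 12.75, 12.90, 12.87, 13.00 and 12.94 in allogeneic animals, with overlap through animal 1 (0.12, SE 0.10, adjusted p = 0.543).

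Subunit c, which forms the rotating ring, is encoded by Atp5g1, Atp5g2 and Atp5g3, whose mature proteins are the same. Atp5g1 read 12.71, 12.82, 12.77, 12.78 and 12.86 in syngeneic and 12.44, 12.97, 12.77, 12.98 and 12.98 in allogeneic animals (0.04, SE 0.13, adjusted p = 0.902). Atp5g2 read 12.73, 12.63, 12.72, 12.73 and 12.68 in syngeneic and 12.77, 12.74, 12.75, 12.78 and 12.82 in allogeneic animals (0.07, SE 0.09, adjusted p = 0.699). Atp5g3 read 13.61, 13.59, 13.61, 13.56 and 13.59 in syngeneic and 13.57, 13.60, 13.55, 13.56 and 13.57 in allogeneic animals (-0.02, SE 0.08, adjusted p = 0.921). Of the 3, Atp5g1 varied most, with its lowest value in allogeneic animal 1. The signs of Atp5g1 and Atp5g2 turned with median centring only and over the mean of all their probe sets, and that of Atp5g1 also without quantile normalization.

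**Figure D5:**
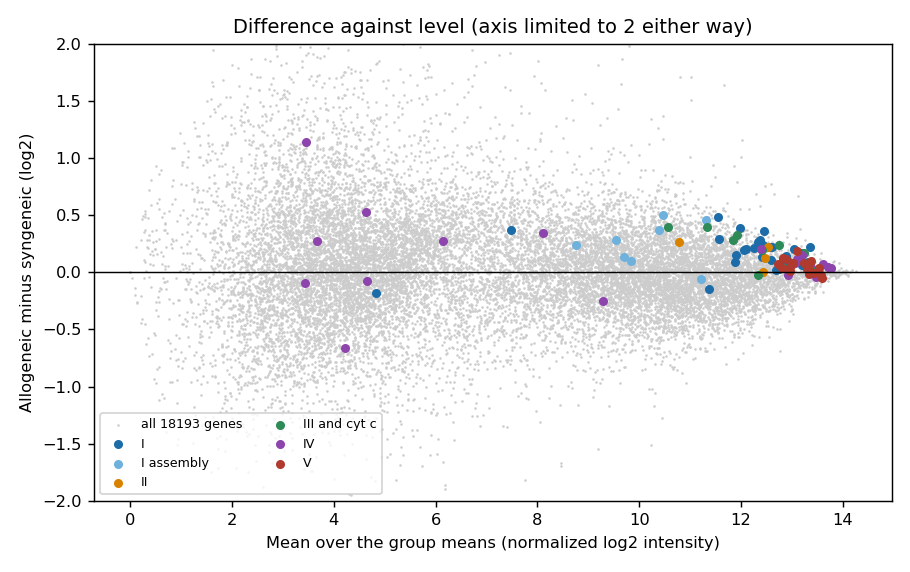
Allogeneic minus syngeneic difference (log2) against mean level for all 18193 genes (grey, the axis ending at 2 either way) and the 92 genes by complex. Of the 92 genes, 62 lie at levels of 12 or more, where the grey cloud is narrow; complex V sits at the far right, between 12.73 and 13.60.

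Related genes outside the symbol rule gave no call either. Among 18 measured complex IV assembly factors 0 passed, with a median of 0.08. Coa4 differed by 0.45 (adjusted p = 0.180) and Cox20, which handles a core subunit, by -0.35 (adjusted p = 0.190). Of 6 complex III assembly factors 2 were positive, Uqcc3 at 0.73 (SE 0.20, adjusted p = 0.137) and Bcs1l, which inserts the Rieske protein, at 0.57 (SE 0.18, adjusted p = 0.175), and the list's median was -0.03. All 4 complex II assembly factors were positive with a median of 0.35, and their median deviations of -0.01, 0.64, -0.17, 0.81 and 0.59 in allogeneic animals 1 to 5 were highest in the same 3 animals as those of the complex I assembly factors. Sdhaf1 differed by 0.43 and Sdhaf4 by 0.42 (adjusted p = 0.255 and 0.298). The 3 complex V assembly factors had a median of 0.20, with Atpaf1 at 0.39 (SE 0.13, adjusted p = 0.175) and Atpaf2 at 0.20 (SE 0.22, adjusted p = 0.673), both needed to assemble the F1 head. The 8 complex I assembly factors outside the rule had a median of 0.01, and Tmem186 (-0.16) and Tmem126b (0.15) had the smallest p among them.

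The genes listed as regulators of mitochondrial biogenesis leaned the other way. Of 16 measured, 11 were negative and 0 passed, with a median of -0.18. The share with a positive difference was 31.2%, against 51.2% of all genes. It was 50.5% for all genes above the limit on all 10 arrays, as were 15 of these 16. For genes with a mean level of 12 or more it was 43.1%, but the list's levels ran from 3.98 to 12.44, mostly below 12. This list was not examined under the other scalings. Pprc1, a coactivator related to PGC-1, differed by -0.59 (SE 0.16, adjusted p = 0.126), with all allogeneic values below all syngeneic ones. Twnk, the mitochondrial DNA helicase, differed by -0.52 (SE 0.19, adjusted p = 0.222). The tricarboxylic acid cycle list had a median of 0.08 over 17 genes with 12 positive, with Suclg2 at 0.39 (adjusted p = 0.246) and Pdhx at 0.28 (adjusted p = 0.404). The 8 carriers and uncoupling genes had a median of 0.02, where Vdac3, a channel of the outer membrane, differed by 0.15 (adjusted p = 0.475) and Slc25a31 was not well above background on any array. The mitochondrially encoded subunit ND5 differed by -0.01 (SE 0.09, adjusted p = 0.974).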

How the data were processed

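Values came from the deposited series matrix table, which holds 1 linear intensity for each of 45101 probe sets on each array. For the deposited intensity values, the summary and scaling steps that the authors ran were not given in the sources used here. Median deposited intensity was 53.3 to 72.1 per array, and precision is limited by having only 10 arrays. Their log2 values were quantile normalized between arrays. Probe sets were named by the platform annotation, with symbols updated through the gene identifier to GRCm38.p6 for 34741 of the 34945 with 1 symbol. A gene took the values of whichever of its probe sets had the highest mean log2 value, and all 18193 genes entered the fit unfiltered. The background limit of an array was the 95th percentile of 27 bacterial control probe sets.

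Groups were compared with limma 3.58.1 (lmFit, eBayes) in R 4.3.3 over all genes, with Benjamini-Hochberg adjustment. The fit was tested on simulated data. All adjusted p-values are limma's. The genes, lists and tests were chosen with earlier results of these data known. Any of the 92 genes could be named. Per-animal values are given for the 2 genes of each complex with the smallest p in each direction, the complex IV isoform pairs, the subunit c genes, Cycs, Cyc1 and the Sdh genes. Of the related lists the 2 genes of smallest p are named. Cox5b and Cox5a, the sets of genes whose groups did not overlap and the other 5 core subunits were named after their values were seen. So were the unused probe sets of Atp5c1, Atp5j2 and Ndufaf4, and the genes with a dim probe set of opposite sign. Medians of lists carry no test. Alternatives covered scaling, pseudocount, filters, probe set choice, moderation, array weights, the animal number as a block and removal of animals.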

Additional observations from a re-analysis of the deposited data

Results flagged for a closer look

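Among 84 groups of 5 animals examined for an animal far from the rest, 4 had one, and chance gives about 1 in 20. Allogeneic animal 1 was low for Ndufaf3, at 9.85 against 10.84 to 11.19. Syngeneic animal 3 was high for Cycs, at 12.87 against 12.53 to 12.62. Allogeneic animal 4 was high for Cox7a2, at 13.85 against 13.77 to 13.79. Syngeneic animal 5 was high for Cox4i2, at 5.24 against 4.22 to 4.51, near the background limit.

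A probe set of Ndufab1, the mitochondrial acyl carrier protein in complex I, that did not represent the gene passed limma's test over all probe sets, with a difference of -0.97 (adjusted p = 0.0442) at a mean level of 6.92. The probe set used, at a mean level of 12.58, had the opposite sign (0.23), as did the next brightest (0.28). The remaining 2 of its 5 probe sets, at mean levels of 6.58 and 5.59, were negative (-0.12 and -0.72), so 3 of 5 were negative.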

How the results depend on the processing

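No gene of the 92 was called in the reported fit. Counts in other fits were 1 without quantile normalization, 2 with trend and robust moderation, 4 with array weights, 3 without allogeneic animals 1, 3 and 4, and 0 to 3 when single animals were left out (3 without allogeneic animal 1). The count over all genes, 106, became 251 with a pseudocount of 16, 237 without the lower 25% of genes, 307 with genes above background on at least 5 arrays, 307 with trend and robust moderation, 720 with array weights, 658 without allogeneic animals 1, 3 and 4, and 55 to 636 without single animals (55, 56, 57 and 69 without syngeneic animals 2, 5 and 1 and allogeneic animal 4, and 636 without allogeneic animal 1). With the animal number as a replicate block it was 14, and 0 of the 92 passed. The numbers name animals, and the labels do not pair them between the groups. Deviations of same-numbered animals correlated at 0.26, 0.35, -0.05, -0.21 and -0.20 over 10455 genes, and 2 of 5 correlated best with their own number. Such correlations cannot decide whether animals were paired.

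Medians of complexes I to V moved by less than the spread between animals except in 6 cases. With median centring only, the median was 0.076 for complex II, 0.019 for complex IV and -0.060 for complex V. Complex V was at -0.026 without quantile normalization. Without allogeneic animals 1, 3 and 4 it was 0.097, and complex IV was at 0.13.

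Of 35 genes followed singly, 15 turned sign under at least 1 alternative. Without quantile normalization these were Ndufb4 (0.030), Sdha (-0.060), Cox6a1 (-0.012), Cox7a2 (-0.020), Cox8b (0.16), Ndufa4l2 (0.15) and Atp5g1 (-0.030). With median centring only they were Sdha (-0.094), Cox6a1 (-0.047), Cox6b1 (-0.026), Cox7a2 (-0.054), Cox8b (0.12), Ndufa4l2 (0.12), Atp5g1 (-0.064) and Atp5g2 (-0.024). Over the mean of all probe sets they were Sdha (-0.43), Cycs (-0.020), Cox6a2 (-0.14), Atp5g1 (-0.099) and Atp5g2 (-0.54). Each of these means included a negative probe set above the limit on 5 or fewer arrays. The other Cycs probe sets, above it on all 10, were positive. Sdha also had negative probe sets above it on all 10 (-0.06 and -0.36), and Atp5g2 had one above it on 9 (-0.80). With array weights the genes that turned were Ndufaf4 (0.060) and Ndufa4 (0.033). Without allogeneic animals 1, 3 and 4 they were Ndufb4 (0.54), Ndufaf4 (0.12), Sdha (-0.00090), Cyc1 (0.027), Ndufa4 (0.025) and Cox4i2 (0.16). Leaving out single animals gave ranges of -0.0091 to 0.016 for Sdha, -0.080 to 0.024 for Cyc1, -0.072 to 0.020 for Ndufa4, -0.31 to 0.035 for Ndufa4l2, -0.17 to 0.046 for Ndufaf4 and -0.16 to 0.046 for Cox8b. The causes were not tested. Signal near background limits 7 of the 92 genes, and the platform symbol and the updated symbol gave the same 92 genes.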

Other observations

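Probe sets annotated to several genes were not used above, and 10 of them carry a symbol of these families. None of the 10 passed limma's test over all probe sets. The 2 shared by Ndufb4 and its relatives Ndufb4b and Ndufb4c were bright, at means of 12.52 and 11.43 in syngeneic leukaemia, and differed by 0.21 and 0.33 (adjusted p = 0.486 and 0.352). The probe set of Ndufs6 and Ndufs6b differed by 0.24 (adjusted p = 0.312), the brighter probe set of Ndufa11 and Ndufa11b by 0.13, and that of Ndufab1 and its pseudogene by 0.43 (adjusted p = 0.239).

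Over all 163 single-symbol probe sets of the 92 genes that were above the limit on all 10 arrays, 142 had a positive difference, with a median of 0.13. The medians were 0.20 for complex I (69 of 72 positive), 0.18 for complex III with cytochrome c (16 of 18), 0.11 for complex IV (23 of 27) and 0.04 for complex V (20 of 28).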
